A study of Homo sapiens with 8 samples.

Results

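The genes described here are 10 that act in the traffic and attachment of T cells: the chemokine receptors CCR4, CCR7, CCR8 and CCR9, the sphingosine-1-phosphate receptor S1PR1, the selectin ligand SELPLG, the adhesion molecules ICAM1 and ICAM2, and the surface glycoproteins CD44 and CD99. They were chosen by gene symbol, and every probe set with one of these symbols was taken. Each of the 10 had 1 probe set, so they are 10 of the 14884 genes that carried a symbol on the array. All 10 passed the filter on dim genes, which kept 8930. The genes were picked with the log2 values of these same arrays in view. Their levels and differences are therefore given as a description, and the calls printed for them show only where each gene fell in a fit over all genes.

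The arrays came from 2 established human cell lines of T cell acute lymphoblastic leukaemia (T-ALL), labelled CCRF-CEM and HPB-ALL. Each line gave 4 arrays, 1 for each construct, namely a scramble short hairpin RNA (shRNA), shTOX-1, shTOX-2 and no transduction. Both hairpins target TOX, an HMG-box nuclear factor that developing thymocytes depend on. The 3 transduced cultures of a line were infected by spinoculation, selected with puromycin and kept for at least 2 weeks, a treatment the untransduced cells did not share. Separate cultures or clones are not named in the labels. A p-value here therefore reflects only how far the arrays differ among themselves, which may include technical variation.

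Chemokine receptors are G protein-coupled receptors that steer cells along gradients of small secreted proteins. CCR9 and its ligand CCL25 act in the thymus and gut, and CCR7 with CCL19 and CCL21 draws cells within the thymus and into lymph nodes. CCR4, the receptor of CCL17 and CCL22, and CCR8, the receptor of CCL1, are found on activated, regulatory and skin-homing T cells. S1PR1 senses sphingosine-1-phosphate (S1P) in blood and lymph and lets mature T cells leave the thymus and lymph nodes. SELPLG encodes PSGL-1, which binds selectins during rolling. ICAM1 and ICAM2 are ligands of the integrin LFA-1, CD44 binds hyaluronan, and CD99 is a small glycoprotein that takes part in passage through vessel walls and is abundant on immature thymocytes.

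TOX itself was lower in every shTOX array than in the controls of its line. As a share of scramble, shTOX-1 left 77.0% and shTOX-2 left 44.6% of the TOX signal in CCRF-CEM, while in HPB-ALL they left 74.2% and 28.0%. Over all tested genes the correlation between arrays was 0.949 to 0.985 within a line and 0.876 to 0.908 across lines. Of 15 T cell markers measured, all 15 had a mean above the filter level (log2 5.18) in CCRF-CEM and 9 in HPB-ALL. The 6 below it in HPB-ALL were CD2, CD8B, CD1A, CD1B, CD1E and RAG1. As background, HPB-ALL is usually described as a CD1-positive line of cortical thymocyte type and CCRF-CEM as CD1-negative. On these arrays CD1A lay between 6.91 and 10.37 in the arrays labelled CCRF-CEM and between 3.66 and 4.82 in those labelled HPB-ALL. Whether the line labels are exchanged was not tested, and each direction between the lines rests on the labels. Of 4 B cell markers measured, 1 (PAX5) had a mean above the filter level in each line. For NK cells it was 3 of 5 in CCRF-CEM and 4 of 5 in HPB-ALL. For myeloid cells it was 2 of 8 in CCRF-CEM (S100A9 and SPI1) and 3 of 8 in HPB-ALL (MPO as well). Of erythroid and megakaryocyte markers 3 of 4 were above it in each line, and of stromal, endothelial and epithelial markers 3 of 7. The summed log2 level over all 8 arrays lay between 17.6 and 19.0 for B cells, 27.1 and 29.8 for NK cells, and 35.7 and 42.3 for myeloid cells. These sums depend on the number of markers in each list.

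CCR8 varied most among the 10 genes once the line means were taken out, and in the same order in both lines. In CCRF-CEM, untransduced cells had a log2 level of 8.08, scramble cells 6.13, shTOX-1 cells 5.12 and shTOX-2 cells 4.63. In HPB-ALL, untransduced cells had 8.03, scramble cells 6.84, shTOX-1 cells 6.15 and shTOX-2 cells 4.56. The untransduced array was the highest and the shTOX-2 array the lowest of each line, and both shTOX arrays lay below both controls in each. Both CCRF-CEM shTOX arrays and the HPB-ALL shTOX-2 array were under the filter level, so background limits the size of these differences. Between the highest and the lowest array the intensity ratio came to 10.98 for CCRF-CEM and to 11.05 for HPB-ALL.

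**Figure D1:**
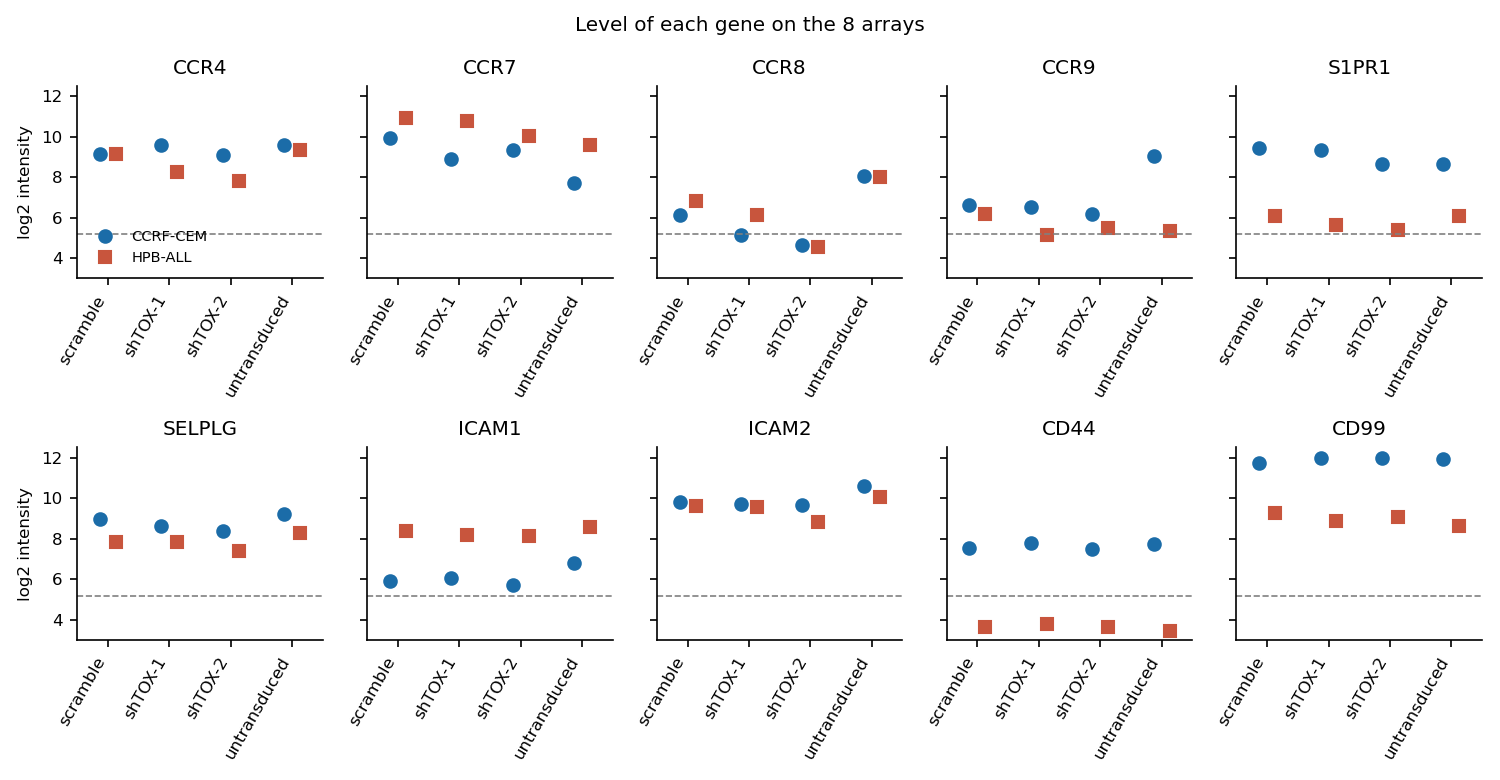
Log2 intensity (vertical axis) of the 10 genes with scramble, shTOX-1, shTOX-2 and no transduction (horizontal axis), 1 point per array, circles for CCRF-CEM and squares for HPB-ALL; the dashed line is the filter level of 5.18. CCR8 lies at 8.08 and 8.03 in the untransduced arrays and at 4.63 and 4.56 in the shTOX-2 arrays, and CD44 has means of 7.63 in CCRF-CEM and 3.62 in HPB-ALL.

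In the fitted contrasts CCR8 stood at -2.94 ± 0.37 (standard error, as are all values after ±) between shTOX and untransduced arrays and at -1.37 ± 0.37 between shTOX and scramble. Between scramble and untransduced arrays it stood at -1.57 ± 0.43. The scramble arrays thus lay between the untransduced and the shTOX arrays. Transduction with selection and the shTOX hairpins are both part of the first contrast, and their shares in it cannot be told apart beyond these values. Between the lines CCR8 overlapped, and HPB-ALL minus CCRF-CEM was 0.41 ± 0.46.

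CCR4 had a different pattern in each line. The CCRF-CEM arrays held levels of 9.16 (scramble), 9.57 (shTOX-1), 9.07 (shTOX-2) and 9.59 (untransduced), a range of 0.52. The HPB-ALL arrays held 9.14, 8.27, 7.81 and 9.32 in the same order. There both shTOX arrays lay below both controls, whereas in CCRF-CEM they overlapped them. The shTOX difference from the mean of the controls was -0.05 ± 0.24 for CCRF-CEM and -1.19 ± 0.24 for HPB-ALL. The difference between these, -1.13 ± 0.35, was not called, nor was that of any other tested gene (smallest adjusted p = 0.811 in limma, with 410 genes at an unadjusted p under 0.05). Without the CCRF-CEM scramble array 8 genes were called, and CCR4 was not among them.

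CCR7, the receptor that guides cells to lymph nodes, ran the other way: it was lowest in the untransduced array of each line. Its CCRF-CEM levels were 7.69 untransduced, 8.92 for shTOX-1, 9.33 for shTOX-2 and 9.92 with scramble. Its HPB-ALL levels were 9.59 untransduced, 10.01 with shTOX-2, 10.75 with shTOX-1 and 10.9 with scramble. The scramble array was thus the highest of each line, with both shTOX arrays between it and the untransduced array. The scramble arrays differed from the untransduced ones by 1.77 ± 0.28, the shTOX arrays differed from the untransduced ones by 1.12 ± 0.25, and the shTOX arrays differed from scramble by -0.65 ± 0.25. Set against the mean of both control kinds, these opposite differences left 0.23 ± 0.44, which became -0.23 without the CCRF-CEM untransduced array, -0.01 without that of HPB-ALL and -0.65 without both.

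CCR9, the thymus and gut homing receptor, was set apart by 1 array. In CCRF-CEM it was 9.06 in untransduced cells, against 6.64 for scramble, 6.52 for shTOX-1 and 6.17 for shTOX-2. No such gap was seen in HPB-ALL, with 5.34 untransduced, 6.2 for scramble, 5.14 for shTOX-1 and 5.48 for shTOX-2. There the shTOX-1 array was under the filter level of 5.18, and the untransduced and shTOX-2 arrays were close above it. The shTOX difference from untransduced cells, -1.37 ± 0.53 over both lines, became -2.81 without the HPB-ALL untransduced array and 0.065 without the CCRF-CEM one. Some T cell markers were also highest on the CCRF-CEM untransduced array. Among them CD1B was 9.94 there and 5.39 to 7.45 on the transduced arrays, and PTCRA was 11.15 and 7.84 to 9.07. CD247, CD2, CD5, CD4 and CD8B lay within the range of the transduced arrays. The summed log2 level of the 15 T cell markers was 137.7 there, against 117.3 to 123.9 on the 3 transduced arrays. The HPB-ALL sum was 98.1 untransduced and 92.3 to 97.2 transduced. The part of this in the CCR9 and CCR8 levels was not tested, and in bulk RNA a change in the number of cells expressing a gene and a change in RNA per cell cannot be told apart.

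S1PR1, which lets T cells leave lymphoid organs, differed mainly between the lines. It was 9.42 with scramble, 9.33 with shTOX-1, 8.67 with shTOX-2 and 8.66 untransduced in CCRF-CEM. It was 6.07, 5.63, 5.39 and 6.07 in HPB-ALL. The lowest CCRF-CEM array lay 2.59 above the highest HPB-ALL array. Within the lines all 4 shTOX arrays lay below their scramble array, 0.10 and 0.75 lower for CCRF-CEM, 0.44 and 0.68 lower for HPB-ALL (-0.49 ± 0.23 in the fit). The HPB-ALL shTOX arrays were close above the filter level of 5.18.

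SELPLG, the selectin ligand, was higher in CCRF-CEM than in HPB-ALL on every array, though with a gap of only 0.06 between the nearest arrays. The 4 CCRF-CEM levels were 8.96 (scramble), 8.63 (shTOX-1), 8.36 (shTOX-2) and 9.2 (untransduced), and the 4 HPB-ALL levels were 7.81, 7.81, 7.37 and 8.3. As for CCR8, the untransduced array was the highest and the shTOX-2 array the lowest of each line. The shTOX arrays differed by -0.71 ± 0.16 from untransduced cells and by -0.34 ± 0.16 from scramble.

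The LFA-1 ligands shared that order within the lines but not the contrast between them. ICAM2 in CCRF-CEM was 9.82 with scramble, 9.71 with shTOX-1, 9.64 with shTOX-2 and 10.61 untransduced. HPB-ALL gave 9.6, 9.57, 8.84 and 10.07 in the same order, and both shTOX arrays lay below both controls in each line. The lines overlapped, with a difference of -0.42 ± 0.21. ICAM1 was 5.93 with scramble, 6.05 with shTOX-1, 5.72 with shTOX-2 and 6.8 untransduced on the CCRF-CEM arrays, while the HPB-ALL arrays held 8.4, 8.18, 8.15 and 8.55. Every HPB-ALL array thus lay at least 1.35 above every CCRF-CEM array. Relative to untransduced cells the shTOX arrays stood at -0.65 ± 0.17 for ICAM1 and -0.90 ± 0.19 for ICAM2. Relative to scramble these values were -0.14 ± 0.17 and -0.27 ± 0.19.

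CD44 and CD99 differed widely between the lines. CD44, a hyaluronan receptor, was 7.55 with scramble, 7.76 with shTOX-1, 7.51 with shTOX-2 and 7.72 untransduced in CCRF-CEM. In HPB-ALL it was 3.63, 3.77, 3.64 and 3.43 in the same order, below the filter level on all 4 arrays. CD99 had 11.71, 11.99, 11.99 and 11.93 on the CCRF-CEM arrays, against 9.27, 8.88, 9.09 and 8.64 on the HPB-ALL arrays. In CCRF-CEM they had the smallest standard deviations of the 10 over the 4 arrays, 0.125 for CD44 and 0.13 for CD99. For HPB-ALL the standard deviation of CD99 was 0.272, above the 0.19 of ICAM1, and that of CD44 was read at background. The shTOX mean minus the control mean in CCRF-CEM was -0.006 for CD44 and 0.166 for CD99, and in HPB-ALL it was 0.032 for CD99.

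**Figure D2:**
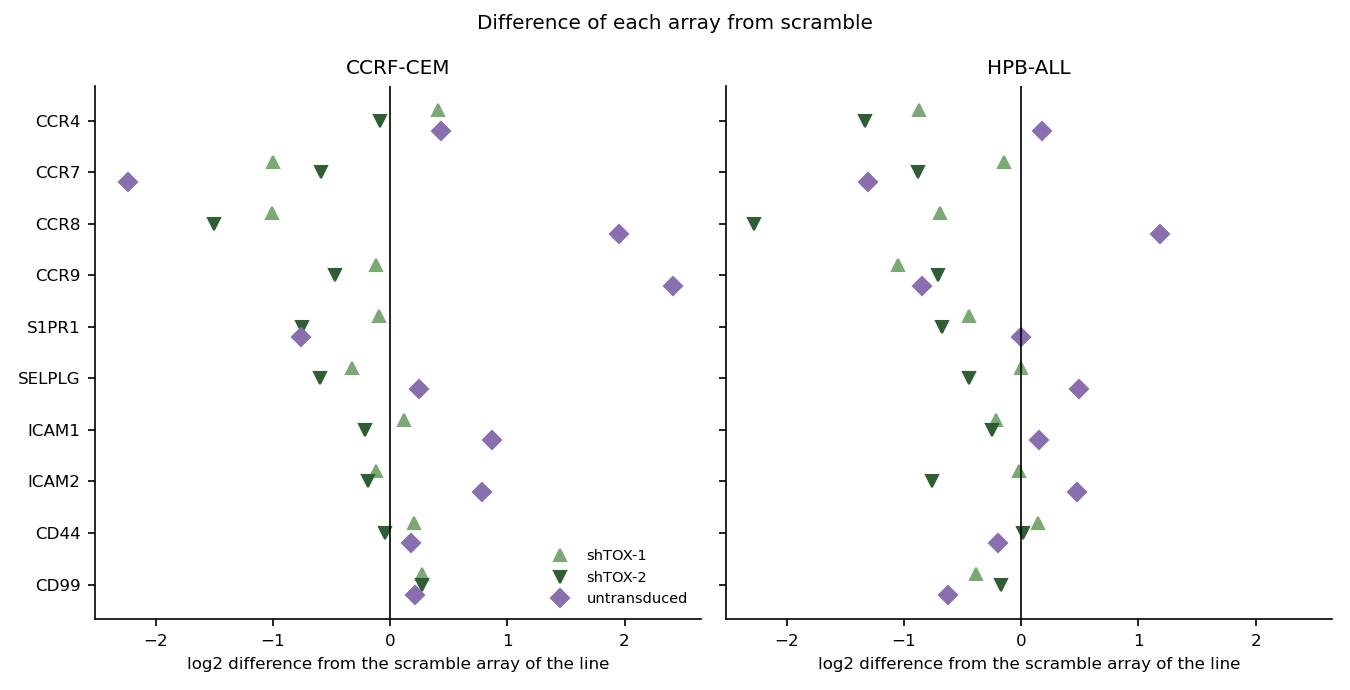
Log2 difference of the shTOX-1 (upward triangles), shTOX-2 (downward triangles) and untransduced (diamonds) array from the scramble array of the same line (horizontal axis) for the 10 genes (vertical axis), CCRF-CEM on the left and HPB-ALL on the right. CCR8 has the shTOX arrays below 0 and the untransduced array above 0 in both lines, at 1.95 and 1.18, whereas the CCR7 diamonds lie at -2.23 and -1.31.

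Across constructs, 5 of the 10 genes (CCR4, CCR8, SELPLG, ICAM1 and ICAM2) had the untransduced array above the other 3 of its line in both lines, which was the case for 16.7% of all tested genes. CCR7 alone of the 10 had it below the other 3 in both lines (20.5% of all). The shTOX-2 array was the lowest of the 4 in both lines for the same 5 genes, against 9.31% of all genes. Within CCRF-CEM both shTOX arrays lay below both controls for 4 of the 10 (CCR8, CCR9, SELPLG and ICAM2; 20.8% of all genes) and above both for CD99 (22.3%). Within HPB-ALL they lay below for 5 (CCR4, CCR8, S1PR1, ICAM1 and ICAM2; 16.3%) and above for CD44 (24.5%), which was under the filter level there. They lay below both controls in both lines for CCR8 and ICAM2 (4.99% of all) and above them in both lines for none of the 10 (6.36% of all). Since the genes were picked with these values known, nothing is read from how the counts compare with those shares.

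Against scramble, the control that shares infection and selection, all 4 shTOX arrays were below the scramble array of their line for CCR7, CCR8, CCR9, S1PR1 and ICAM2, 5 of the 10 (9.69% of all genes). They were all above it for 0 of the 10 (11.9% of all), and on opposite sides of it in the lines for CD99 (27.4% of all). Of the fitted differences 9 of 10 were below 0, with CD44 at 0.08 ± 0.14 the exception, although its HPB-ALL values were under the filter level. CD99 stood at 0.00 ± 0.17. Without the HPB-ALL scramble array CCR9 (0.15), ICAM1 (0.04) and CD99 (0.32) turned above 0, as did CD99 (0.05) without the HPB-ALL shTOX-1 array. The median was -0.41, beside 0.016 over all tested genes, of which 46.2% were below 0. The contrast called 0 of the 10 and 0% of the 8930 genes in limma at a Benjamini-Hochberg adjusted p under 0.05 (459 had an unadjusted p under 0.05). The contrast of shTOX with both control kinds together also called 0 of the 10 and 0% of all (1277 at an unadjusted p under 0.05; 4 genes were called without the CCRF-CEM scramble array and 1 without the HPB-ALL one), with a median of -0.46 for the 10 and 0.026 for all genes. These contrasts share the shTOX arrays, so their values are not independent of each other.

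The shTOX-2 arrays, with the lower TOX level, lay below the shTOX-1 arrays in 9 of the 10 fitted differences, as 58.5% of all tested genes did. CCR8 was at -1.04 ± 0.60, CCR4 at -0.48 ± 0.33, S1PR1 at -0.45 ± 0.27 and ICAM2 at -0.40 ± 0.29, with CD99 at 0.11 ± 0.22 on the other side. CCR9 turned above 0 without the CCRF-CEM shTOX-2 array (0.57) or the HPB-ALL shTOX-1 array (0.11), and CCR7 without the HPB-ALL shTOX-1 (0.16) or shTOX-2 array (0.29). CD99 stood at -0.01 without the HPB-ALL shTOX-1 array. In both lines shTOX-2 was the lower for CCR4, CCR8, S1PR1, SELPLG, ICAM1, ICAM2 and CD44, while CCR7 and CCR9 changed order between the lines. Both shTOX arrays were under the filter level for CD44 in HPB-ALL and for CCR8 in CCRF-CEM, so background limits their order there. The fit called 0 of the 10 and 0% of all genes between the hairpins (limma, 381 at an unadjusted p under 0.05).

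Against untransduced cells the fit called 5 of the 10 genes and 11.8% of all genes (limma, adjusted p under 0.05). CCR8, SELPLG, ICAM1 and ICAM2 were called as lower in the shTOX arrays (5.64% of all) and CCR7 as higher (6.18% of all). The differences of CCR4 (-0.77 ± 0.29), CCR9, S1PR1 (-0.11 ± 0.23), CD44 (0.09 ± 0.14) and CD99 (0.20 ± 0.17) were not called. The calls rested on single arrays. Without the CCRF-CEM untransduced array none of the 5 passed, with differences of 0.75 for CCR7, -2.63 for CCR8, -0.75 for SELPLG, -0.36 for ICAM1 and -0.83 for ICAM2, and only 25 genes in all did. Without the HPB-ALL untransduced array SELPLG (-0.67) and ICAM2 (-0.98) did not pass, and CCR9 (-2.81) did, with 360 genes in all. CCR7 (1.01), SELPLG (-0.64), ICAM1 (-0.57) and ICAM2 (-0.90) did not pass without the CCRF-CEM shTOX-2 array, nor SELPLG (-0.63) and ICAM1 (-0.66) without the HPB-ALL shTOX-2 array. ICAM1 did not pass without either shTOX-1 array (-0.70 and -0.67), and CCR4 (-0.99) passed without the CCRF-CEM one. Between scramble and untransduced arrays CCR7 was called higher in scramble (0.582% of all genes) and 0 of the 10 lower (0.482% of all), 1 of the 10 beside 1.06% of all genes. It did not pass without either scramble array (1.52 without that of CCRF-CEM and 2.02 without that of HPB-ALL), the CCRF-CEM untransduced array (1.40) or the CCRF-CEM shTOX-2 array (1.77). The contrasts with untransduced cells share those arrays. CCR9 (-2.22) passed in the latter without the HPB-ALL untransduced array.

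**Figure D3:**
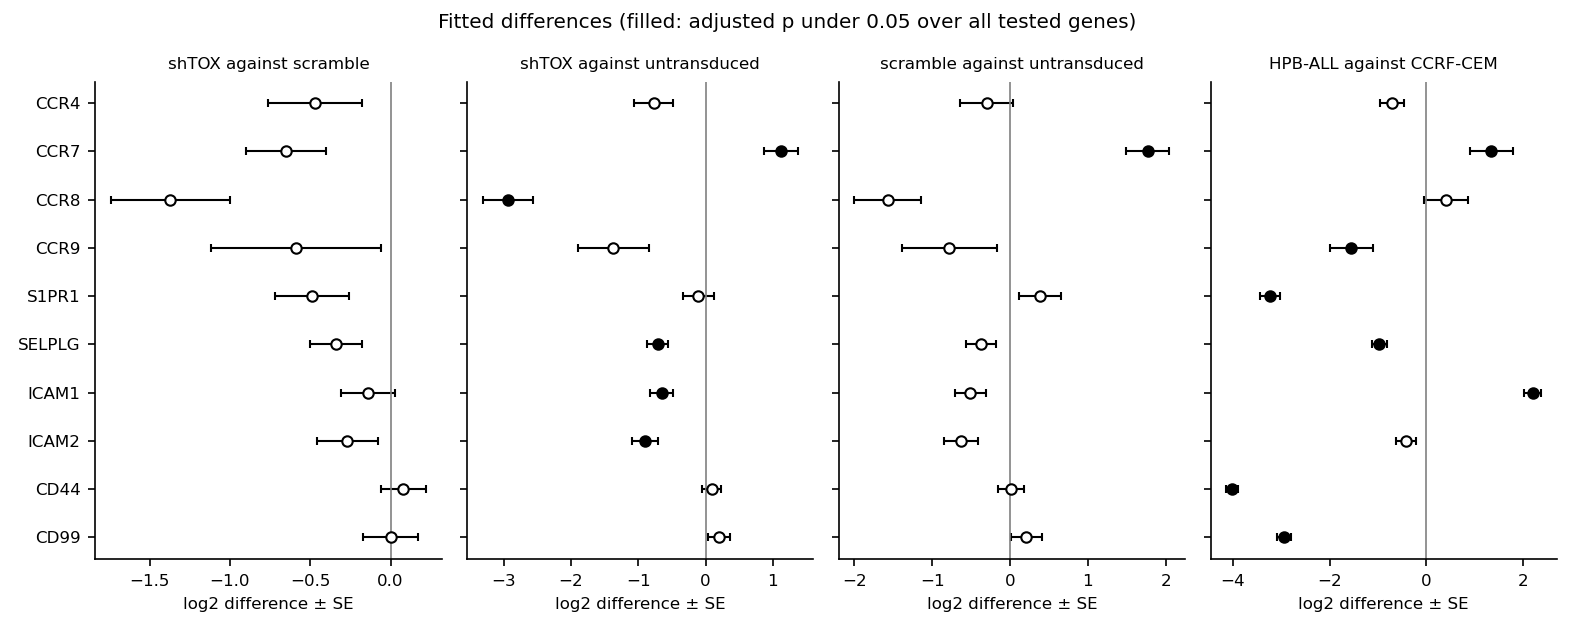
Fitted log2 differences with standard errors (horizontal axes, each panel with its own scale) of the 10 genes in 4 contrasts over the 8 arrays; filled points had an adjusted p under 0.05 in the fit over all tested genes. No point is filled for shTOX against scramble, 5 are for shTOX against untransduced cells, 1 for scramble against untransduced cells and 7 for HPB-ALL against CCRF-CEM.

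Between the lines the fit called 7 of the 10 genes, beside 27.4% of all tested genes. CD44 (-4.02 ± 0.12), S1PR1 (-3.23 ± 0.21), CD99 (-2.94 ± 0.15), CCR9 (-1.55 ± 0.45) and SELPLG (-0.97 ± 0.16) were lower in HPB-ALL than in CCRF-CEM (12.4% of all genes), and ICAM1 (2.20 ± 0.18) and CCR7 (1.35 ± 0.44) were higher (14.9% of all). The 4 arrays of each line did not overlap for S1PR1, SELPLG, ICAM1, CD44 and CD99 (27% of all genes). CD44 passed the filter only through CCRF-CEM, and its HPB-ALL level gives only an upper bound. CCR4 (-0.71 ± 0.24), ICAM2 and CCR8 were not called. The calls of CCR7 and CCR9 hung on single arrays. CCR7 did not pass without the shTOX-1 (1.28), shTOX-2 (1.45) or untransduced array (0.88) of CCRF-CEM, or without the scramble (1.07), shTOX-1 (1.22) or shTOX-2 array (1.51) of HPB-ALL. CCR9 did not pass without the CCRF-CEM shTOX-1 (-1.59), HPB-ALL shTOX-1 (-1.59) or HPB-ALL untransduced array (-1.28). CCR4 passed without the CCRF-CEM scramble (-0.91) or the HPB-ALL untransduced array (-0.86).

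The 4 genes of the set that differed most between the lines and whose start is in the RefSeq promoter table are CD44, S1PR1, CD99 and ICAM1. The 250 bases before each start (GRCh38.p14, reference sequence, 5′ to 3′) are shown because these genes lay furthest apart between the lines. The S1PR1 start used lies downstream of the first base of the gene (101236899), so its window lies partly within the gene. Capitals mark matches to 3 short motifs: GGNNNTTCC, an NF-kB-like motif, CCACCC, a motif of KLF factors, and TATAAA, the TATA box.
CD44, chr11:35138921-35139170, + strand: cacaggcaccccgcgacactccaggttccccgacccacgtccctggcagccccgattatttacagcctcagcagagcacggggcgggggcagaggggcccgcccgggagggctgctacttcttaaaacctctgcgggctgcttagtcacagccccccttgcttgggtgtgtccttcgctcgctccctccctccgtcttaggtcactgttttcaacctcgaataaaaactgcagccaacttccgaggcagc
S1PR1, chr1:101236769-101237018, + strand: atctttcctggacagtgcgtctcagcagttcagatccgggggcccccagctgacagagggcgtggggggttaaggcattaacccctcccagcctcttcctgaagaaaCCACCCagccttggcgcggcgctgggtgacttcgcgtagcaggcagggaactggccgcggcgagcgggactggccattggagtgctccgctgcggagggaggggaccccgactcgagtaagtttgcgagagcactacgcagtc
CD99, chrX:2691045-2691294, + strand: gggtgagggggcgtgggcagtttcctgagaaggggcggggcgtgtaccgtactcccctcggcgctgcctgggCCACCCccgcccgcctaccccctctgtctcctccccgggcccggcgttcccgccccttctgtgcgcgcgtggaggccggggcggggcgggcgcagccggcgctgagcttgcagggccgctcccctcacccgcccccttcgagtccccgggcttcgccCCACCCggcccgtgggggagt
ICAM1, chr19:10270870-10271119, + strand: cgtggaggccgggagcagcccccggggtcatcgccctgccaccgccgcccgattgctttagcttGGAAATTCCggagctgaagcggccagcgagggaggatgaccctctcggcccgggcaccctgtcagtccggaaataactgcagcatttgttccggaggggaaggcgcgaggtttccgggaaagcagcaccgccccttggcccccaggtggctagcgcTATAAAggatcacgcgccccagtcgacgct

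Motifs were searched on both strands. Also searched were AGATAA, bound by factors of the GATA family, and, for the RUNX family of factors, TGTGGT. ICAM1 held the NF-kB-like match GGAAATTCC at 186 to 178 bases before its start and TATAAA at 30 to 25 bases before it. Of all 35093 RefSeq windows of that length, 17.1% held the former motif and 10.7% the latter. S1PR1, whose transcription in T cells is known to be driven by KLF2, held CCACCC at 143 to 138 bases before its start, and CD99 held it at 178 to 173 and at 21 to 16. That motif was in 31.3% of all windows. CD44 held none of the 5 motifs in this window. CCR4 held AGATAA (9.17% of all windows) at 81 to 76 bases before its start. CCR9 has 2 windows in the table, both downstream of the first base of the gene (45886064). The upstream one held CCACCC, counting both strands, at 89 to 84 and at 49 to 44 bases before its start. The other held it at 76 to 71, the NF-kB-like match GGAAATGCC at 147 to 139, and TATAAA, again on either strand, at 242 to 237 and at 154 to 149. The NF-kB-like motif was thus present in ICAM1, with the higher level in HPB-ALL, and in a window of CCR9, with the higher level in CCRF-CEM. Its part in these levels was not tested. GC content was 62.4% for CD44, 64.4% for S1PR1, 78.0% for CD99 and 66.0% for ICAM1, all above the median of 58.0%, and 39.6% for CCR4. A match describes letters only, and no binding was measured. Of the 10 genes 6 matched the table, and CCR7, CCR8, SELPLG and ICAM2 did not.

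By likeness of pattern, 3 genes were named for each of the 3 of the 10 that varied most within lines, by Pearson's r over the 8 arrays after the line means were taken out. For CCR8 these were ELOA-AS1 (r = 0.992), FGFR1 (0.988) and TTC17 (0.988). For CCR9 they were LINC00663 (0.980), KDM3A (0.974) and LINC01550 (0.967), and for CCR7 they were GLYCTK (0.979), KIAA0040 (0.961) and TRMT2B (0.958). These are the highest of 8930 genes over only 8 arrays, the same arrays for both genes of a pair, and they serve as a description.

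Around the 10 genes stand 9 lists of partners with 218 genes, of which 82 were tested. They hold the other chemokine receptors, the chemokines, S1P receptors and metabolism, signalling below chemoattractant receptors, selectins and their ligands, integrins and their activators, other immunoglobulin-fold adhesion molecules, the linkers and ligand of CD44, and NF-kB genes. Against scramble 0 of the 82 were called in limma. The lowest p there among genes of S1P biology was that of KLF2, the factor behind S1PR1 transcription, at -0.64 ± 0.17 (adjusted p = 0.93). KLF2 was 8.49 with scramble, 7.74 with shTOX-1, 7.35 with shTOX-2 and 8 untransduced on the CCRF-CEM arrays, while the HPB-ALL arrays held 7.09, 6.79, 6.71 and 6.86. All 4 shTOX arrays lay below their scramble array, as for 9.69% of all genes. A link between the KLF2 and S1PR1 levels was not tested. RHOH, a GTPase of haematopoietic cells, stood at -0.57 ± 0.18 (adjusted p = 0.93). Among the chemokines, XCL1 stood at -0.69 ± 0.21 and CCL21, in the other direction, at 0.40 ± 0.12 (adjusted p = 0.93 in limma for each). Both had levels close to or under the filter level in the shTOX arrays.

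Against untransduced cells 10 of the 82 partners were called, 6 higher and 4 lower in the shTOX arrays, a share of 12.2% beside 11.8% of all genes. In the list around CD44, 4 of 10 tested genes were called. HMMR, another hyaluronan receptor and a gene of dividing cells, rose by 1.05 ± 0.15 (adjusted p = 0.00625 in limma). The cytoskeletal linkers EZR and MSN rose by 0.60 ± 0.12 and 0.49 ± 0.13. ADAM10, a protease that sheds CD44, changed by -0.60 ± 0.15. HMMR was also the 1 partner called between scramble and untransduced arrays, at 1.10 ± 0.17 (adjusted p = 0.0341 in limma). CD44 itself was not called in either. Of 8 tested chemokines 3 were called: XCL1 at -0.98 ± 0.21, with all 4 shTOX arrays under the filter level (4.59 to 5.13), CCL5 at 0.53 ± 0.14 and CCL21, a ligand of CCR7, at 0.45 ± 0.12, with levels of CCL21 between 5.11 and 5.77, close to the filter level. RGS16, which dampens chemokine receptor signalling, changed by -1.14 ± 0.31, the integrin linker TLN1 by 0.61 ± 0.13 and the adhesion molecule ALCAM by -0.79 ± 0.15. These calls too rested on single arrays: without the CCRF-CEM untransduced array 0 of the 82 were called, and without the HPB-ALL untransduced array 3 of the 10 kept their call (HMMR, RGS16 and ADAM10). Without the shTOX-2 array of CCRF-CEM 4 kept it, and without that of HPB-ALL or the CCRF-CEM shTOX-1 array 5 did. HMMR kept its call against untransduced cells in every such fit but the first. Between scramble and untransduced arrays it lost it without either scramble array, either shTOX-2 array or the CCRF-CEM untransduced array. Of the other chemokine receptors 0 of 4 were called and of the S1P genes 0 of 10, and CXCR4, the main chemokine receptor of T-ALL cells, was high on all 8 arrays (10.75 to 11.38).

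**Figure D4:**
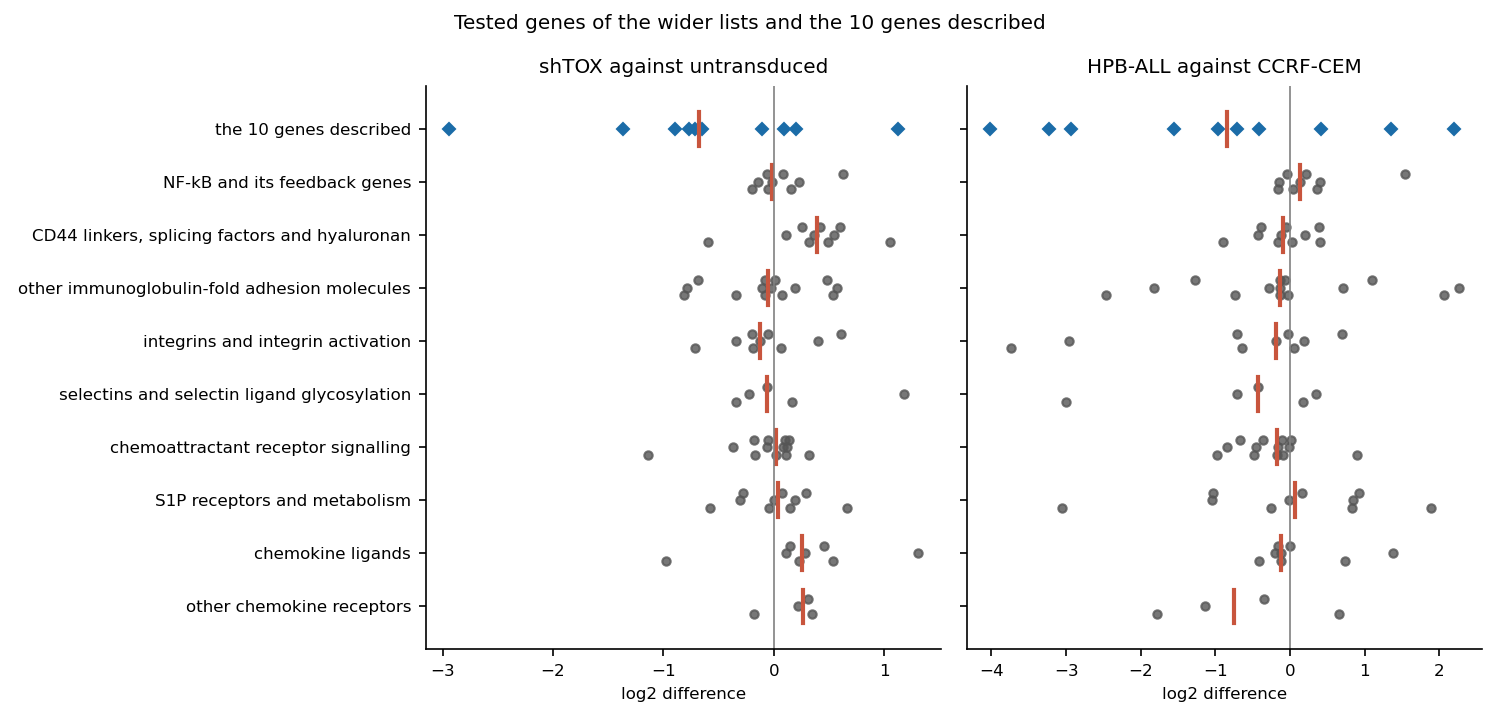
Fitted log2 differences (horizontal axes) of the tested genes of the 9 partner lists and of the 10 homing and adhesion genes (rows), for shTOX against untransduced cells and HPB-ALL against CCRF-CEM; each grey point is a partner gene, each blue diamond one of the 10 genes, vertical offsets only separate points, and red bars are medians. The CD44 list has its median at 0.39 in the first panel, and the 10 genes have theirs at -0.68 and -0.84.

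Between the lines 38 of the 82 partners were called, 15 higher and 23 lower in HPB-ALL, a share of 46.3% beside 27.4% of all genes. The partner lists were chosen with earlier results of these data known, so nothing is read from how their shares, here or above, compare. ACKR3, CD34 and CCL1 passed the filter only through the line where they were higher. The S1P list split, with 4 of 10 tested genes higher and 3 lower: KLF2 (-1.03 ± 0.16) and CD69 (-3.05 ± 0.45), which pulls S1PR1 from the surface, were lower in HPB-ALL like S1PR1 itself, and S1PR2, a receptor with the opposite effect on migration, was higher (1.89 ± 0.13). CD69 was under the filter level on 2 of the 4 HPB-ALL arrays. Of 16 other chemokine receptors measured only 4 passed the filter, and all 4 were called. ACKR3 (-1.78 ± 0.22), CCRL2 (-1.14 ± 0.22) and CXCR4 (-0.35 ± 0.11) were lower and CCR10 (0.66 ± 0.14) was higher. CCR10 lay between 5.11 and 5.61 in CCRF-CEM, with 1 array under the filter level. ACKR3 was under the filter level on all 4 HPB-ALL arrays (4.34 to 4.88), so background limits the size of its difference. CCL1, the ligand of CCR8, was higher in HPB-ALL (1.38 ± 0.37), with levels of 4.51 to 7.04 there and of 4.17 to 4.95 in CCRF-CEM, where all 4 arrays were under the filter level and the size is again limited by background. Among integrin activators FYB1 (-3.74 ± 0.19), FERMT3 (-2.96 ± 0.12), TLN1 (-0.72 ± 0.14) and RASSF5 (-0.64 ± 0.12) were lower and SKAP1 (0.70 ± 0.13) was higher; FYB1 was under the filter level on 1 HPB-ALL array. Of 9 tested NF-kB genes 3 were called higher, CD83 (1.54 ± 0.25), REL (0.40 ± 0.13) and NFKB2 (0.37 ± 0.11), and the other 6 were not called, beside 14.9% called higher among all genes. Of the adhesion molecules ALCAM (2.26 ± 0.17), CD226 (2.06 ± 0.36) and CD48 (1.09 ± 0.28) were higher, and CD96 (-2.46 ± 0.32), SLAMF6 (-1.82 ± 0.28) and CD6 (-1.27 ± 0.14) lower. The progenitor antigen CD34 was lower in HPB-ALL (-3.01 ± 0.54), where all 4 arrays were under the filter level (4.29 to 5.05) and give no measured size. In CCRF-CEM it was 5.52 untransduced and 8.05 to 8.55 on the 3 transduced arrays, so the CCRF-CEM untransduced array stood apart for CD34 as for CCR9, in the other direction.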

How the data were processed

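RNA was hybridised to Affymetrix arrays, 1 array per line and construct. The authors deposited log2 values of 53617 probe sets, with array medians from 4.62 to 4.71. Their summary and normalisation method is not given in the sources used here. A probe set was named where the platform annotation gave 1 symbol (16098; 37519 had none), and the brightest stood for a gene (14884 genes, 779 with several). The test took the 8930 genes whose mean reached log2 5.18, the 40th percentile over genes. Differences were fitted with limma 3.58.1 in R 4.3.3 (lmFit, eBayes), with terms for line and treatment, and p-values were adjusted over all tested genes by Benjamini-Hochberg. The scripts were tested on simulated data. The number of arrays limits the precision. The 10 genes, the partner lists and the tests were chosen with earlier results of these data known. All 10 genes are named; from each list up to 6 called genes by size, or up to 3 by p. The same replicate number in both lines names a hairpin and does not pair cultures. Alternatives were no filter, quantile normalisation, the mean of probe sets, a trended robust fit, a replicate block and leaving out arrays.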

Additional observations from a re-analysis of the deposited data

Results flagged for a closer look

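CCR9 in the CCRF-CEM untransduced array (log2 9.06) lay far from the other 3 arrays of that line, with a gap to the next array that was 0.836 of the whole range, above Dixon's 95% critical value. It was 1 of 20 line groups checked, and chance alone gives about 1 in 20. S1PR1 differed from untransduced cells in opposite directions in the lines. Both shTOX arrays were higher in CCRF-CEM, by 0.34 on average, and both were lower in HPB-ALL, at -0.56. In CCRF-CEM the shTOX-1 array lay 0.67 higher and the shTOX-2 array only 0.01, so the direction there rests on shTOX-1. CD99 differed in opposite directions against scramble, at 0.27 in CCRF-CEM and -0.28 in HPB-ALL. For these particular contrasts the difference between the lines was not tested.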

How the results depend on the processing

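Of the values of the 10 genes under each alternative, 49 changed sign, of which 0 had been called (CCR9 between shTOX and scramble went from -0.59 to 0.15 without the HPB-ALL scramble array), 34 lost a call and 10 gained one. The line calls of CD44, S1PR1, CD99, ICAM1 and SELPLG held under all 14 alternatives. With construct as a replicate block, each construct had its own term. There shTOX against both controls called 16 genes in place of 0, CCR8 among them (-2.16, adjusted p = 0.0205 in limma). The main fit of that contrast pooled scramble and untransduced arrays, so their difference counted as spread. In the block fit scramble against untransduced cells called 9 in place of 95, without CCR7 (1.77, adjusted p = 0.0582 in limma). The block also added CCR4 (-0.71) and ICAM2 (-0.42) to the line calls. The trended robust fit called 220 genes between scramble and untransduced cells. ICAM1 against untransduced cells lost its call without the filter (-0.65) and after quantile normalisation (-0.63), and CCR7 between the lines did so there (1.35 and 1.34) and in the trended fit. The cause was not tested. Leaving out 1 array gave 0 to 4 calls for shTOX against both controls, 25 to 1080 (1056 with all arrays) against untransduced cells, 3 to 90 for scramble against untransduced cells, 1817 to 2471 (2443) between lines and 0 to 8 for the shTOX difference between lines. Shared replicate numbers name hairpins, and the deviations of same-numbered arrays correlated at 0.225 over 2 pairs. Low intensity limits CCR8, CCR9 and, in HPB-ALL, CD44, and the HPB-ALL shTOX arrays of S1PR1 lay close above the filter level. With 1 array per line and construct, no spread within a culture was measured.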
